A study of Homo sapiens with 4 samples.

Results

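The PPARG binding sites of NCI-H1993, a human lung adenocarcinoma cell line known for amplification of the receptor tyrosine kinase gene MET, were taken as all rows of the deposited peak list of that line. The list held 1419 peaks, of 3644 in the whole series, and the other 2225 belonged to NCI-H2347, a second lung adenocarcinoma line that served only as a reference. The study measured PPARG occupancy by chromatin immunoprecipitation and sequencing (ChIP-seq), with 1 ChIP and 1 input sample per line. Both lines, ChIP and input alike, were BAC transgenic for PPARG-LAP, that is, PPARG joined to the LAP tag, which includes EGFP and serves for localization and purification, and were grown in RPMI medium with fetal bovine serum. The tagged protein was precipitated with a goat antibody against EGFP from formaldehyde-fixed, sonicated chromatin. The labels give no treatment. They do not explain the abbreviation PIO in the names of the lists, and they do not say whether a line was 1 clone. The binding measured is that of the tagged protein. The input libraries were not analysed here, read depth is unknown, and no replicate was available.

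PPARG is a ligand-activated nuclear receptor that binds DNA as a heterodimer with a retinoid X receptor, mostly at direct repeats of the nuclear receptor half-site. It is best known as the regulator of fat cell formation and lipid storage, and it responds to fatty acids and to the thiazolidinedione drugs. Targets known from many tissues include PDK4, whose kinase product inhibits the pyruvate dehydrogenase complex, and ANGPTL4, a secreted inhibitor of lipoprotein lipase. All positions below are on hg19, counted from 1. Genes beside peaks were named from general knowledge of that map, with no hg19 annotation at hand, so distances and gene features such as exons were not measured. Against a RefSeq table of GRCh38.p14, all 63 genes named in this way lay on the stated chromosome, 138 of 138 pairs had the same order, and 18 of 19 flanking pairs were neighbours. The exception was SERTAD2 and SLC1A4, with 1 other gene between them.

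The NCI-H1993 list was made mostly of narrow peaks of modest score. The authors' score, 1 value per peak, had a median of 69.8 (quartiles 56.9 and 98.2). Of the peaks, 338 (23.8%) scored 100 or more and 42 (2.96%) scored 200 or more. The top of the list stood well clear of the rest, with scores of 716, 651 and 610 before a step down to 375. Peaks that were not wider than 2500 bp and lay on chromosomes numbered 1388, and in these the score and width had a Spearman correlation of 0.34, given as a description across peaks of 1 library. Their median width was 621 bp at scores from 50 to 60 and 924 bp at scores of 200 or more. The plot of score against width shows both the step at the top and a separate group of wide peaks.

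**Figure D1:**
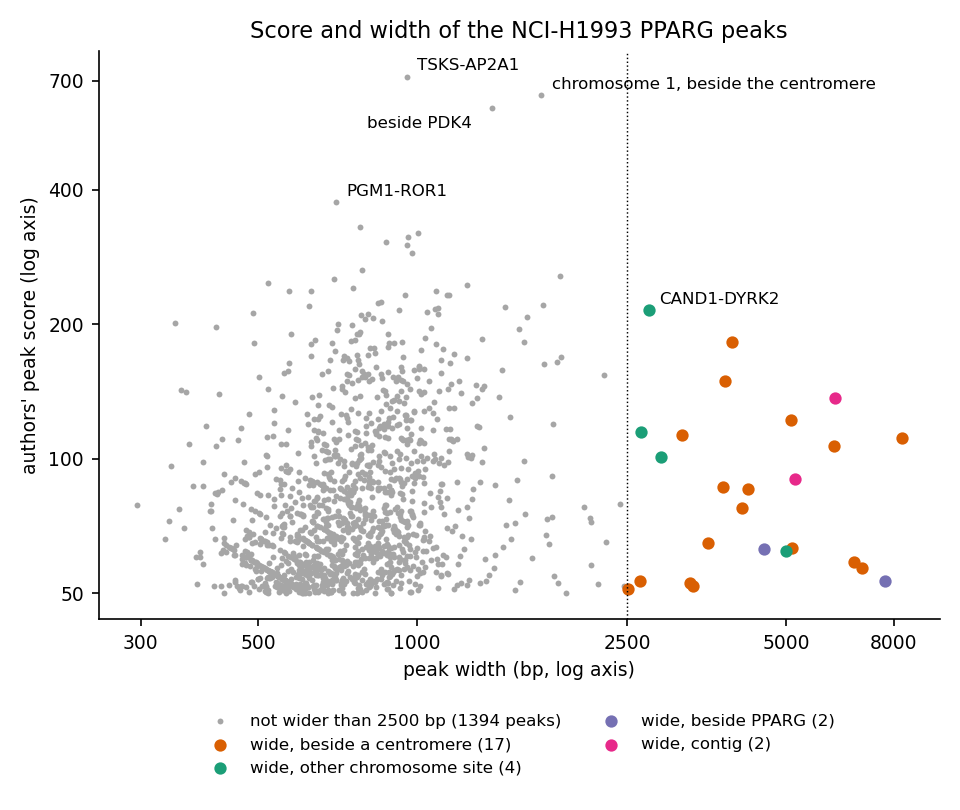
Score of each of the 1419 NCI-H1993 peaks (vertical, log axis) against its width in bp (horizontal, log axis). Grey points are the 1394 peaks not wider than 2500 bp (dotted line) and coloured points the 25 wider peaks by class; 3 peaks score above 600, and the wide peaks reach 8278 bp without reaching those scores.

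Over the whole list, 486 of 1419 peaks (34.2%) overlapped a peak of NCI-H2347, and the share was larger at higher scores. Of the narrow chromosome peaks scoring 50 to 60, 20.4% overlapped by at least 1 bp (95% Wilson interval 16.9% to 24.4%). The share was 29.5% at 60 to 80, 41.6% at 80 to 100, 51.2% at 100 to 150 and 60.5% at 150 to 200. It was 73.2% (58.1% to 84.3%) at 200 or more. The intervals cover counting error only. Most sites of this line scoring 100 or more were thus also found in the other line, while most of the lower-scoring sites were not. The majority was slight at 100 to 150, where the interval was 44.4% to 58.0% over 205 peaks.

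The strongest sites lay beside genes of varied function, with known PPAR targets among them. The highest score, 716, belonged to a peak at chr19:50268598-50269555 between TSKS, a testis kinase substrate, and AP2A1, a subunit of the clathrin adaptor complex. The overlapping NCI-H2347 peak scored 296. The third score, 610, belonged to chr7:95237562-95238949 beside PDK4, between it and DYNC1I1, a dynein intermediate chain. The NCI-H2347 peak there scored 410. The ANGPTL4 site at chr19:8431841-8432980 ranked 20 and scored 233, and its NCI-H2347 counterpart scored 257. Scores are comparable within a list only, so these pairs of values show presence in both lists and not a difference in binding.

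Genes of metabolism and transport lay beside further sites of the top 25. The fourth site, chr1:64128566-64129268, lay between PGM1, a phosphoglucomutase at the branch between glycogen and glycolysis, and ROR1, a receptor tyrosine kinase, with a score of 375 (342 in NCI-H2347). The site between SERTAD2 and SLC1A4, a neutral amino acid transporter, scored 240 (chr2:65115752-65116508). SLC4A5, a bicarbonate cotransporter, held a site scoring 238 (chr2:74494126-74494754), and SLC29A3, a nucleoside transporter, one scoring 233 (chr10:73099497-73100645). All of these also had an NCI-H2347 peak.

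The remaining sites of the top 25 lay beside genes of varied function. The site in ESR1, the estrogen receptor gene, scored 225 (chr6:152221990-152222844) and had no NCI-H2347 peak. The site between KLF4, a zinc finger factor of epithelial differentiation, and ACTL7B scored 223 (chr9:110517332-110518175). That between ZNF217, a zinc finger factor amplified in some carcinomas, and BCAS1 scored 220 (chr20:52402241-52403973), the lowest of the 25. Both of the latter overlapped NCI-H2347 peaks. Other sites lay in BCAR3, an adaptor linked to antiestrogen resistance (score 301), in SPIDR, a scaffold of DNA repair (289), and in ASAP1, an Arf GTPase activator (237). A site between SMG9, a factor of nonsense-mediated decay, and KCNN4, a calcium-activated potassium channel, scored 305. The site between USP44, a deubiquitinase, and NTN4, a netrin, scored 313, and that in DPY19L2 scored 331. Sites beside ADGRF1 and TNFRSF21, a death receptor (264), beside PGLYRP4 and S100A9, an inflammatory calcium-binding protein (244), and in TUFT1 (232) completed those with an NCI-H2347 peak.

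Of the top 25 sites, 18 overlapped an NCI-H2347 peak and 7 did not. The shared part was 34.2% over the whole list and 73.2% (30 of 41) among narrow chromosome peaks scoring 200 or more. The split of the top 25 was thus near that of peaks with such scores. Beside ESR1, the 7 were in GALNT2, which starts O-linked glycosylation (252), in CCNJL, a cyclin J-like gene (247), in EXT1, of heparan sulfate synthesis (237), and between DYRK2, a protein kinase, and IFNG (256). The other two had no gene assigned: chr3:157503935-157504939 scored 321, and chr1:121483888-121485608, beside the centromere of chromosome 1, scored 651. The second-highest score of the list therefore belonged to a pericentromeric peak. The 25 sites fell on 12 chromosomes and were 522 to 1867 bp wide, with a median of 958 bp.

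Chromosomes with more protein-coding genes generally held more peaks, with several departures. Across 23 chromosomes, peak number and gene number had a Spearman correlation of 0.64 and a Pearson correlation of 0.73, given as descriptions, since all points come from 1 library and both counts grow with chromosome length. Per 100 protein-coding genes of the RefSeq table, chromosome 10 held 12.3 peaks, chromosome 18 held 11.5, chromosome 7 held 10.98 and chromosome 20 held 10.2, against 7.06 over the chromosomes together. The lowest values were 3.07 on chromosome X, 3.38 on chromosome 19 and 4.07 on chromosome 11. Chromosome 19 thus had few peaks for its genes, yet its peaks scored high, with a median of 88.7 and 36.7% at 100 or more, and it carried the TSKS-AP2A1 and ANGPTL4 sites. Chromosome 10 had the same share at 100 or more, and its 70 to 80 Mb window was the fullest of the list with 20 peaks, among them the SLC29A3 site.

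**Figure D2:**
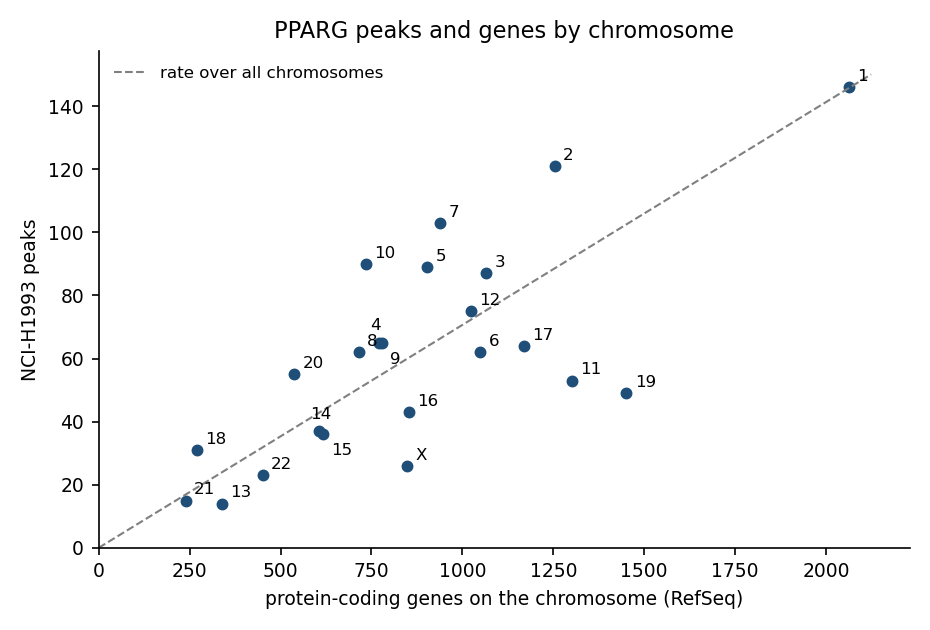
NCI-H1993 peaks per chromosome (vertical) against the number of protein-coding genes of the chromosome in the RefSeq table (horizontal), with chromosome names beside the points and a dashed line at the rate over all chromosomes together. Chromosomes 7 (103 peaks) and 10 (90) lie high for their gene number and chromosome 19 (49) lies low.

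Sites were spread thinly along the chromosomes. Among 1388 pairs of neighbouring peaks, midpoints were a median of 794 kb apart (quartiles 177 and 2513 kb). Of these pairs, 60 (4.32%) lay within 10 kb, 180 (13.0%) within 50 kb and 761 (54.8%) within 1 Mb, while 162 (11.7%) were more than 5 Mb apart. The closest midpoints were 608 bp apart, and the longest spacing, 33.7 Mb, was on chromosome 13, which held only 14 peaks. In NCI-H2347, with more peaks, the median was 407 kb. The lists differ in length, and whether the arrangement of sites differs beyond that was not tested.

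**Figure D3:**
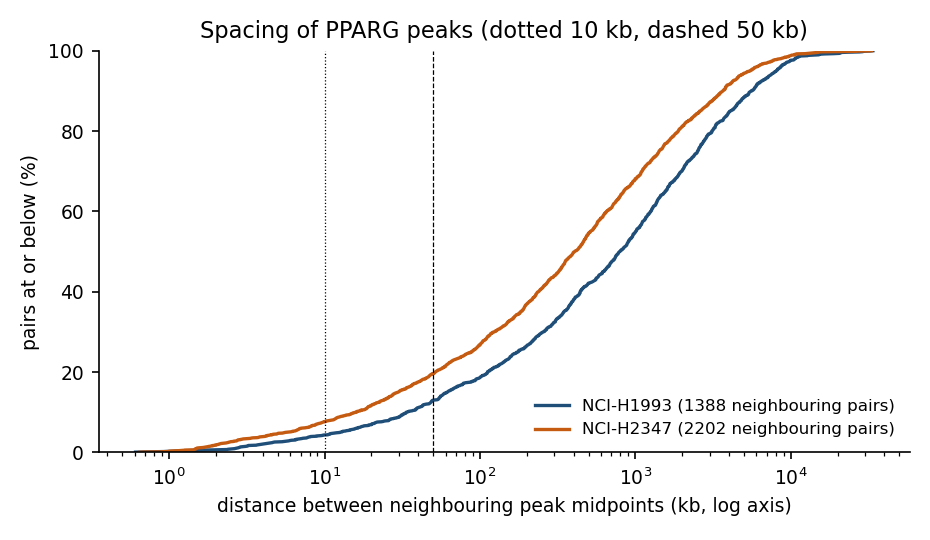
Cumulative percentage of neighbouring peak pairs (vertical) whose midpoints lie at or below a given distance in kb (horizontal, log axis), for NCI-H1993 (blue, 1388 pairs) and NCI-H2347 (orange, 2202 pairs). The dotted line at 10 kb cuts the NCI-H1993 curve at 4.32% and the dashed line at 50 kb cuts it at 13.0%.

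Most peaks stood alone and a small set formed clusters. When neighbours with midpoints at most 50 kb apart were joined, 1087 peaks (77.0%) were alone, 119 pairs formed, and 25 clusters of 3 to 5 peaks held 86 peaks (6.09%). Clustered peaks did not score higher as a set, and the median score of narrow peaks was 69.3 for those alone, 74.0 in pairs and 63.4 in clusters. The last value includes narrow peaks of the pericentromeric clusters and of the cluster beside PPARG, described below. The number of clusters depended on low-scoring peaks, since 1 remained when only scores of 100 or more were used. The 3 clusters of 5 peaks were all pericentromeric, at chr16:46391736-46430552, chr2:92289361-92322251 and chr4:49638609-49660184, and a cluster of 4 lay beside the centromere of chromosome 11. In all, 5 clusters held a wide peak, 4 of them beside centromeres and 1 beside PPARG. The other 20 clusters spanned 6.16 to 88.1 kb, and 24 of their 64 peaks overlapped an NCI-H2347 peak, a share near the 34.2% of the whole list.

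Among the clusters away from centromeres, that with the highest summed score lay on chromosome 6 between ADGRF1 and TNFRSF21. Its 4 peaks spanned chr6:47083933-47156805 and scored 66.2, 108.7, 86.1 and 264 in order of position. One strong site thus stood at the end of a run of weaker ones. A cluster on chromosome 19 covered ECH1, an enzyme of mitochondrial and peroxisomal fatty acid oxidation, and HNRNPL, a splicing factor. Its 4 peaks, in chr19:39321547-39355887, scored 190.6, 59.5, 55.1 and 128.4, with the highest in ECH1, where the NCI-H2347 peak scored 362. The MYH9 cluster, at the gene of non-muscle myosin heavy chain, spanned chr22:36729614-36815878 with scores of 63.2, 115.3, 59.4 and 75.3, and 3 of its 4 peaks were also found in NCI-H2347. The cluster around FLAD1, the flavin adenine dinucleotide synthase, spanned chr1:154943247-154975861, and none of its 4 peaks, which scored 53.5 to 103, had an NCI-H2347 counterpart.

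**Figure D4:**
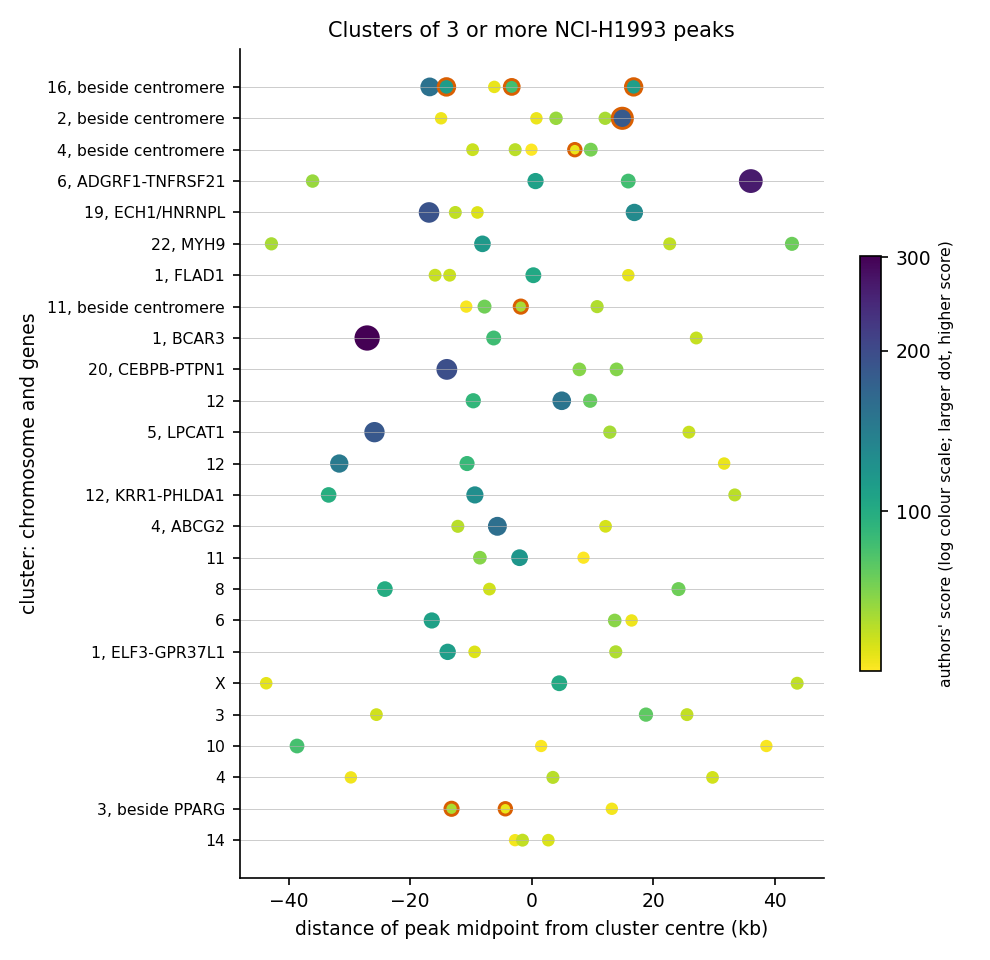
Positions of the peaks of the NCI-H1993 clusters, as distance from the cluster's centre in kb (horizontal), 1 row for each of the 25 clusters. Darker and larger points have higher scores and orange rings mark peaks wider than 2500 bp; clusters with the most peaks come first, and the chromosome 6 and 19 rows show 1 or 2 high-scoring peaks beside weaker ones.

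Chromosome 7, which carries MET, held 103 NCI-H1993 peaks, or 7.26% of the list (95% Wilson interval 6.02% to 8.73%). NCI-H2347 had 111 there, or 4.99% (4.16% to 5.97%). The difference, 2.27 percentage points, was the largest in that direction, but other chromosomes differed too. It was -2.33 points on chromosome 11 and -2.23 on chromosome 17. Chromosome 16 held 3.03% of the NCI-H1993 list against 1.53% of the NCI-H2347 list. Of 297 windows of 10 Mb compared between the lists with Fisher's exact test, 1 (0.337%) had a larger share of peaks in NCI-H1993 at an adjusted p under 0.05, and 1 (0.337%) had a smaller share. The larger share was at 100 to 110 Mb of chromosome 7, with 16 peaks against 3 in NCI-H2347, a difference of 0.993 percentage points of the list (two-sided Fisher's exact test, p = 6.64e-05, Benjamini-Hochberg adjusted p = 0.0144). The smaller share was at 40 to 50 Mb of chromosome 17, with 4 peaks against 35. These tests treat peaks as independent, compare 2 libraries and were added once the values were known. The calls depended on the setting, while the differences kept their direction. Neither window passed when only scores of 100 or more were used (adjusted p = 0.817 and 1) or when the NCI-H2347 list was shortened by score to as many peaks as NCI-H1993 had (0.186 and 0.148, all by Fisher's exact test). The differences were 1.80 points on chromosome 7 (7 peaks against 2) and -1.07 on chromosome 17 at scores of 100 or more, and 0.987 and -1.27 with the shortened list. The cut of 100 was put on both lists, although scores are comparable within a list only, so it need not be equally strict in each.

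The 16 peaks of that window were wide for the chromosome. Their median width was 1390.5 bp, against 776 bp for the other 87 peaks of chromosome 7. Peaks wider than 2500 bp were included, 2 of them in the window. Of the 16, 7 (43.8%) scored 100 or more, against 19 of 87 (21.8%), but the median scores were close, at 74.7 and 73.2. The strongest lay between CDHR3, a cadherin, and SYPL1 and scored 219 (chr7:105705224-105706689, 133 in NCI-H2347). LAMB1, a laminin chain of basement membranes, held a peak of 1846 bp scoring 164 (chr7:107591773-107593618), and NRCAM, a neuronal cell adhesion molecule, one scoring 151 (chr7:107939495-107940496), neither with an NCI-H2347 peak. ATXN7L1 held peaks scoring 134 and 101, the latter 2895 bp wide. A peak of 2662 bp between SYPL1 and NAMPT, the rate-limiting enzyme of NAD salvage, scored 115. The 3 sites found in both lines were each wider in NCI-H1993, at 1270 against 871 bp in ATXN7L1, 1466 against 901 bp beside CDHR3 and 2662 against 990 bp beside NAMPT. Over all 486 NCI-H1993 peaks with an NCI-H2347 partner, the width ratio had a median of 0.856 (quartiles 0.696 and 1.08).

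The window that holds MET, 110 to 120 Mb, had 4 NCI-H1993 peaks and 1 NCI-H2347 peak. The difference was 0.237 percentage points and did not pass (two-sided Fisher's exact test, p = 0.079, Benjamini-Hochberg adjusted p = 0.711). With 20 Mb windows, which join it to the 100 to 110 Mb window, the difference was 1.23 points (unadjusted Fisher's exact p = 1.7e-05). Of the 20 NCI-H1993 peaks in the joined window, 16 came from the window before MET's own. That window had already been called from the same peaks, so the joined test adds no separate evidence about MET. Both tests treat peaks as independent and compare 1 ChIP library per line. The 4 peaks of the window holding MET scored 124, 87.1, 126 and 96.7. The third lay in IFRD1, an interferon-related regulator, at chr7:112089483-112090557. The last lay in TES, a focal adhesion protein gene, at chr7:115857757-115858883, and was the NCI-H1993 peak nearest to MET. After it the list had no peak for 12.8 Mb, the longest spacing of the chromosome, up to TNPO3, a nuclear import receptor (chr7:128694846-128695505, score 155). MET lies between TES and TNPO3 in the RefSeq gene order, so no peak was listed at MET itself. Copy number was not measured in these files, and its part in peak number or width was not tested.

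**Figure D5:**
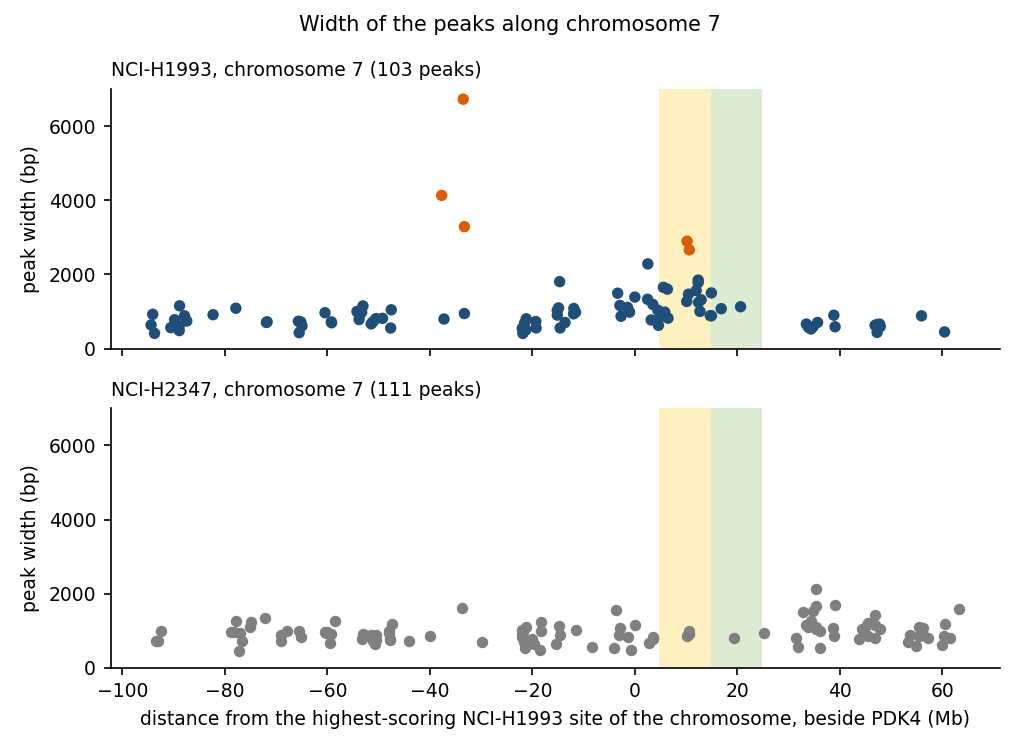
Width in bp (vertical) of each chromosome 7 peak against its distance in Mb from the highest-scoring NCI-H1993 site of the chromosome, beside PDK4 (horizontal), for NCI-H1993 (top, 103 peaks) and NCI-H2347 (bottom, 111). Orange points are peaks wider than 2500 bp, yellow shading is the window with 16 against 3 peaks and green shading the next window, which holds MET; the NCI-H1993 peaks are wider in the yellow window, and a stretch of 12.8 Mb with no NCI-H1993 peak starts within the green one.

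The other high-scoring sites of chromosome 7 were spread over its length. The site between POLD2, a DNA polymerase delta subunit, and MYL7 scored 166 (chr7:44170436-44171161), and that in STRIP2 scored 164. CDK6, a kinase of the G1 phase, held a site scoring 147 (chr7:92324581-92325742), and the site between SEPTIN7 and EEPD1 scored 146. A site at chr7:151156872-151157753, with no gene assigned, scored 157. Each of these 5 also had an NCI-H2347 peak. They were named for their scores, and high-scoring peaks were shared more often. Of the 87 chromosome 7 peaks outside the 100 to 110 Mb window 24 (27.6%) were shared, and of the 16 inside it 3 (18.8%).

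Widths were also raised in other windows. In 128 windows of 10 Mb with at least 5 peaks not wider than 2500 bp, the median of the window medians was 720 bp (quartiles 647 and 833.5 bp). The widest was 60 to 70 Mb of chromosome 12 with 1533 bp over 5 peaks, followed by 40 to 50 Mb of chromosome 10 with 1299 bp over 5 and by the 100 to 110 Mb window of chromosome 7 with 1292.5 bp over 14. The chromosome 10 window also held 3 wide peaks classed beside the centromere, which its median leaves out. The chromosome 7 windows before 100 to 110 Mb were also above the upper quartile, with 1110 bp over 13 peaks at 90 to 100 Mb and 978 bp over 9 at 80 to 90 Mb. The chromosome 12 window held the DYRK2-IFNG site (1867 bp) and a wide peak of 2752 bp scoring 215 between CAND1, a cullin regulator, and DYRK2 (chr12:67876899-67879650). Neither had an NCI-H2347 peak. On chromosome 20 the shared sites had a median width ratio of 1.19 over 20 pairs, the highest of any chromosome, and the ZNF217-BCAS1 site measured 1733 bp against 731 bp in NCI-H2347.

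Wide peaks, over 2500 bp, were set apart as a class, although some of them were named above. There were 25, and they held 9.50% of all bases in peaks. Of these, 17 lay beside a centromere, on 10 chromosomes, 2 were on a contig outside the assembled chromosomes, 2 lay beside PPARG and 4 elsewhere. The centromeric set was 2506 to 8278 bp wide, with a median score of 77.7, and 3 of the 17 overlapped an NCI-H2347 peak. Among all 25 wide peaks 5 (20.0%) did so, all of them among the 23 wide peaks on chromosomes. Among the other peaks of the chromosomes the number was 481 of 1388 (34.7%). The widest, 8278 bp, was at chr16:46422275-46430552, in a run of 5 peaks with no NCI-H2347 peak in its span. The next widest of this set lay at chr2:89870628-89877598 (6971 bp), chr7:61752460-61759185 (6726 bp) and chr10:42527038-42533197 (6160 bp), none with an NCI-H2347 peak. The peak at chr11:51576332-51581462 (5131 bp) did overlap one. Contig peaks numbered 8 on 6 contigs, scoring 50.4 to 138, and NCI-H2347 had none. The input was not analysed here, and whether these peaks exceed it was not tested.

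Of the wide peaks, 2 lay beside PPARG, the gene carried by the transgene, at a distance that was not measured. Beside PPARG, NCI-H1993 had peaks of 4535 bp (chr3:12483898-12488432, score 62.9) and 7705 bp (chr3:12491164-12498868, score 53.2), and another of 2471 bp followed (chr3:12511303-12513773, score 51.9). NCI-H2347 had 1 peak there, of 5627 bp (chr3:12482638-12488264, score 70.4). Wide, low-scoring peaks at this place were thus present in both transgenic lines. The ends of the BAC are not given in the sources used here, so transgene copies and the cell's own locus cannot be told apart.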

How the data were processed

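The peak list of 1 PPARG ChIP sample per line was used. Per the submitters' processing notes, the authors used MACS 1.4.2 and genome build hg19. The aligner, read filters, threshold and use of input are not given in the sources used here. Each deposited list has 5 columns, and the last is a score that the authors deposited per peak, used only to rank and filter within a list. Starts were converted to 1-based positions. Read depth is unknown, so peak numbers were not compared between lines as binding.

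Neighbouring midpoints at most 50 kb apart were joined, with 3 peaks making a cluster. Peaks wider than 2500 bp were set apart and sorted by hand into classes. Windows of 10 Mb were compared by two-sided Fisher's exact test (p-values adjusted after Benjamini and Hochberg), and the code was tested on simulated data. Intervals are 95% Wilson. Named sites were the 25 highest-scoring, the 8 largest clusters, the 10 highest of chromosome 7, every peak of the window holding MET, and the widest peaks. The other peaks named (the 100 to 110 Mb window, wide peaks elsewhere, the third peak beside PPARG and those under other observations) were chosen after their values were seen. The members, lists and rules were chosen with earlier results of these data known. Gene names and centromere neighbourhoods came from general knowledge of the hg19 map, and only chromosome and order were checked, against RefSeq (GRCh38.p14). The software was pandas 2.3.3, scipy 1.17.1 and numpy 2.4.6 under Python 3.11.15, with figures by matplotlib 3.10.9.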

Additional observations from a re-analysis of the deposited data

Results flagged for a closer look

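The share of peaks differed between the lines in 2 of 297 windows of 10 Mb. On chromosome 7 at 100 to 110 Mb, beside the window that holds MET, NCI-H1993 had a share 0.993 percentage points higher (16 peaks against 3). On chromosome 17 at 40 to 50 Mb the difference was -1.29 points (4 peaks against 35). Both had an adjusted p of 0.0144 by Fisher's exact test, which treats peaks as independent.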

How the results depend on the processing

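Counts that rest on low-scoring peaks moved most. With a score of at least 100, clusters went from 25 to 1 and close pairs within 10 kb from 60 to 3. With that cut on both lists, whose scores are comparable only within a list, windows differing between them went from 2 to 0 of 251. Of these, 5 had an unadjusted Fisher's exact p under 0.05. The chromosome 7 difference was then 1.80 points and that on chromosome 17 was -1.07. A joining distance of 25 kb gave 14 clusters and 100 kb gave 41. The count of differing windows was also 0 of 293 with the NCI-H2347 list cut to equal length (11 unadjusted) and 0 of 539 with 5 Mb windows (24 unadjusted), and the cause was not tested. It was 2 without wide and contig peaks, where both windows had an adjusted p of 0.0408. The difference at the window holding MET was 1.23 points with 20 Mb windows, which add the neighbouring window by construction, and did not pass under the other 3 settings. On each chromosome the longest stretch free of peaks in both lists was found, as an intended stand-in for the centromere gap. It did not mark the centromere on every chromosome. On chromosome 8 it ran from 108129121 to 118823320, while the wide peak classed beside the centromere was at chr8:43092582-43097690. Wide peaks at most 3 Mb from such a stretch numbered 6 of 23 (26.1%), and within 5 Mb 10. Of the other chromosome peaks, 88 of 1388 (6.34%) lay at most 3 Mb from one. These shares therefore do not measure nearness to a centromere. The classes set by hand differed from this rule. By hand 17 wide peaks were beside a centromere, while chr3:87253574-87258581, near such a stretch, was classed elsewhere. The chromosome 7 share was 7.69% at scores of at least 100 and 7.06% without wide and contig peaks. No paired analysis was possible because each line had a single ChIP library. The planned distances to transcription starts, DR1 element search and gene lists were not run, as they needed hg19 annotation or sequence, which was not used here. Leaving out replicates was not possible with 1 library.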

Other observations

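Smaller clusters of 3 peaks, chosen after their values were seen, add the following genes. ABCG2, a drug efflux transporter, held a peak scoring 157 (chr4:89065802-89066588) in a cluster with no NCI-H2347 peak. LPCAT1, an acyltransferase of surfactant lipid synthesis in lung, held one scoring 185 (chr5:1516359-1517685). That peak overlapped no NCI-H2347 peak, although another peak of its cluster did. The cluster between CEBPB, a transcription factor of fat cell formation, and PTPN1, a tyrosine phosphatase of insulin signalling, was led by a peak scoring 195.5 (chr20:49028671-49030233). None of its 3 peaks overlapped one of NCI-H2347, although that line had 1 peak within the span of the cluster. The cluster that began with the BCAR3 site scored 301, 87.7 and 58.6. Beside ELF3, an epithelial transcription factor, the leading peak scored 111 in NCI-H1993 and 112 in NCI-H2347 (chr1:201987548-201988428). All 3 peaks of the cluster that ended between KRR1 and PHLDA1 were found in both lines.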
